A study of Mus musculus with 686 samples.

Results

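The Hox-locus microRNAs (miRNAs) are the miRNAs whose hairpin precursors lie inside the 4 Hox gene clusters. The 5 members described here, mmu-miR-10a-5p, mmu-miR-10b-5p, mmu-miR-196a-5p, mmu-miR-196b-5p and mmu-miR-615-3p (below without the species prefix), were chosen by name from the 1964 miRNAs in the deposited count table, and all 5 were found in it. They were measured by small RNA sequencing in 686 libraries from 13 tissues of female BALB/cAnNTac mice. Flight mice (FL) went to the International Space Station (ISS), the habitat ground control (HGC) was kept on the ground in matched flight habitats at doubled density, and the vivarium ground control (VGC) was kept in standard vivarium cages, each arm with mice of 3 and 8 months except in LAR brain and TERM pancreas (3 months only). In the live animal return (LAR, 348 libraries) FL mice spent 39.5 days on the ISS and organs were collected after splashdown and snap frozen, whereas in the terminal arm (TERM, 338 libraries) mice were collected 22 to 24 days after launch and most organs were dissected later from carcasses frozen whole. A mouse number shared between arms names different animals.

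Hox genes encode transcription factors that set position along the head to tail axis, and their order on the chromosome mirrors the order of the body regions that use them. The miR-10 and miR-196 families sit between particular Hox genes and are transcribed with them, and both can repress Hox transcripts, miR-196 being known for cleavage of the Hoxb8 transcript. In adult tissues they keep a regional pattern, and in white adipose tissue miR-196a is known to restrain Hoxc8 and to favour brown-like adipocyte differentiation. A miRNA finds its targets mainly through its seed, bases 2 to 8 from the 5′ end.

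The mature sequences are shown because the members form 2 near-identical pairs and a singleton, which decides how far their reads can be told apart. They are RefSeq sequences annotated on GRCm38.p6, printed 5′ to 3′ with the seed in capitals.
mmu-miR-10a-5p: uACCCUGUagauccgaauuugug
mmu-miR-10b-5p: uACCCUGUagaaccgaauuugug
mmu-miR-196a-5p: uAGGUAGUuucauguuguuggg
mmu-miR-196b-5p: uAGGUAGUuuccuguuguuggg
mmu-miR-615-3p: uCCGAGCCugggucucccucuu
The miR-10 seed was held by 2 of the 1679 mature mouse sequences in the RefSeq table, the miR-196 seed by 2 and the miR-615-3p seed by 1, so no other listed miRNA shared them. Counted from 1 at the 5′ end, miR-10b-5p differed from miR-10a-5p by U12A, and miR-196b-5p differed from miR-196a-5p by A12C. Both changes lie outside the seed, so a read with an error or a gap at base 12 could be assigned to the wrong partner.

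The 5 mature sequences come from 6 hairpins on 4 chromosomes (GRCm38.p6). miR-10a-5p lies at chr11:96317186-96317208, plus strand, between Hoxb5 and Hoxb4. miR-10b-5p lies at chr2:74726074-74726096, plus strand, inside the annotated spans of Hoxd3 and Hoxd4 and outside their exons. miR-196a-5p is encoded by a pair of hairpins with the same mature sequence, at chr11:96265187-96265208 between Hoxb13 and Hoxb9 and at chr15:102973365-102973386 between Hoxc10 and Hoxc9, both on the plus strand, the second copy also inside the annotated span of Hoxc5. miR-196b-5p lies at chr6:52230129-52230150 on the minus strand, in an annotated exon of Hoxa9. miR-615-3p lies at chr15:103014969-103014990, plus strand, inside Hoxc5 and outside its exons.

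Levels are given as CPM, a miRNA's counts divided by the summed miRNA counts of its library and scaled to a common total. The libraries held 0.181 M to 30.5 M miRNA counts, with a median of 3.88 M. miR-10a-5p, miR-10b-5p and miR-196b-5p had at least 1 count in every library, while miR-196a-5p was at 0 in 3 libraries and miR-615-3p in 13. Counting precision was thus lowest for miR-615-3p, whose median was 50.5 counts per library, against 2673 for miR-10a-5p. A miRNA profile computed without the members was closer to another tissue than the labelled one in 165 of the 686 libraries (24.1%), from 0 of 25 in brain to 46 of 57 in mesenteric adipose tissue (MAT). These are called mismatched libraries below, and mismatched pools are the 11 of 44 library pools in which they were more than 1 in 3. Results were also computed without either, and tissue names are those of the labels. In bulk tissue, fewer cells of a type and less of a miRNA per cell cannot be told apart.

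In LAR, kidney had the highest or second highest median of each of the 5 members, and gonadal adipose tissue (GAT) stood beside it in the top places for all but miR-10a-5p, for which lung came second. Brain, liver and heart were low for most members, as was lung for all but miR-10a-5p. mmu-miR-10a-5p had a median of 7608 CPM in the 29 LAR kidney libraries, with a range of 230.1 to 16310 CPM, and 7960 CPM in TERM kidney. Lung came next with 2639 CPM in LAR, and brain was lowest with 54.2 CPM (range 9.64 to 360.3 CPM over 12 libraries). The order in LAR then ran through GAT at 1494 CPM, brown adipose tissue (BAT) at 1304 CPM and subcutaneous adipose tissue (SCAT) at 1141 CPM, all below lung.

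mmu-miR-10b-5p, from the Hoxd cluster, followed a different order from miR-10a-5p. In LAR its median was 3588 CPM in kidney, 2673 CPM in GAT, 1622 CPM in SCAT, 1146 CPM in BAT and 1063 CPM in MAT. It was at 63.2 CPM in lung, 47.5 CPM in spleen and 13.7 CPM in liver, 3 tissues in which miR-10a-5p stood at 2639, 849.3 and 495.4 CPM. These 3 tissues kept the same order in both miRNAs but stood lower relative to the other tissues for miR-10b-5p. miR-10b-5p made up a median of 2.29% of the summed counts of the pair in LAR lung, 3.02% in liver and 6.68% in spleen, against 24.7% in heart, 31.1% in kidney, 57.9% in SCAT and 64.6% in GAT. In TERM the same shares were 2.72% in lung, 5.83% in liver, 6.13% in spleen and 64.5% in GAT.

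miR-196a-5p and miR-196b-5p, from the posterior part of the clusters, had the steepest differences between tissues. mmu-miR-196a-5p reached a median of 3013 CPM in LAR GAT (range 1.97 to 7391 CPM, n = 30) and 2616 CPM in LAR kidney (2.01 to 4366 CPM, n = 29). It stood at 227.3 CPM in MAT and 74.0 CPM in SCAT, and at 1.12 CPM in heart and brain and 1.18 CPM in lung. Among ground controls of LAR, the median of the highest tissue was 2597 times that of the lowest for miR-196a-5p and 3356 times for miR-196b-5p, against 191.3 times for miR-10a-5p, 236.3 times for miR-10b-5p and 223.8 times for miR-615-3p. Without mismatched pools or libraries the fold was 5100 or 4650 for miR-196a-5p, above the 3497 or 3370 for miR-196b-5p, and 377.5 or 478 for miR-615-3p. The lowest GAT and kidney values came from mismatched libraries. mmu-miR-196b-5p was highest in kidney (6468 CPM in LAR, 5505 CPM in TERM), followed by GAT (2752 and 2830 CPM), MAT (422.7 and 254.3 CPM) and SCAT (281.9 and 190.7 CPM).

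The balance within the miR-196 pair also differed between tissues. miR-196b-5p made up a median of 94.2% of the pair in LAR heart, 92.3% in lung, 83.6% in BAT and 70.5% in kidney, but 49.1% in GAT and 41.4% in thymus. In TERM the values were 95.9% in heart, 94.5% in BAT, 69.5% in kidney, 52.1% in GAT and 26.1% in thymus. By these medians miR-196a-5p exceeded its partner in thymus in both extractions, while in GAT the pair was near equal. Of the miR-196a-5p values, 45.6% were fractional in the deposited table and none of the other members', as arises where reads are shared out between entries.

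**Figure D1:**
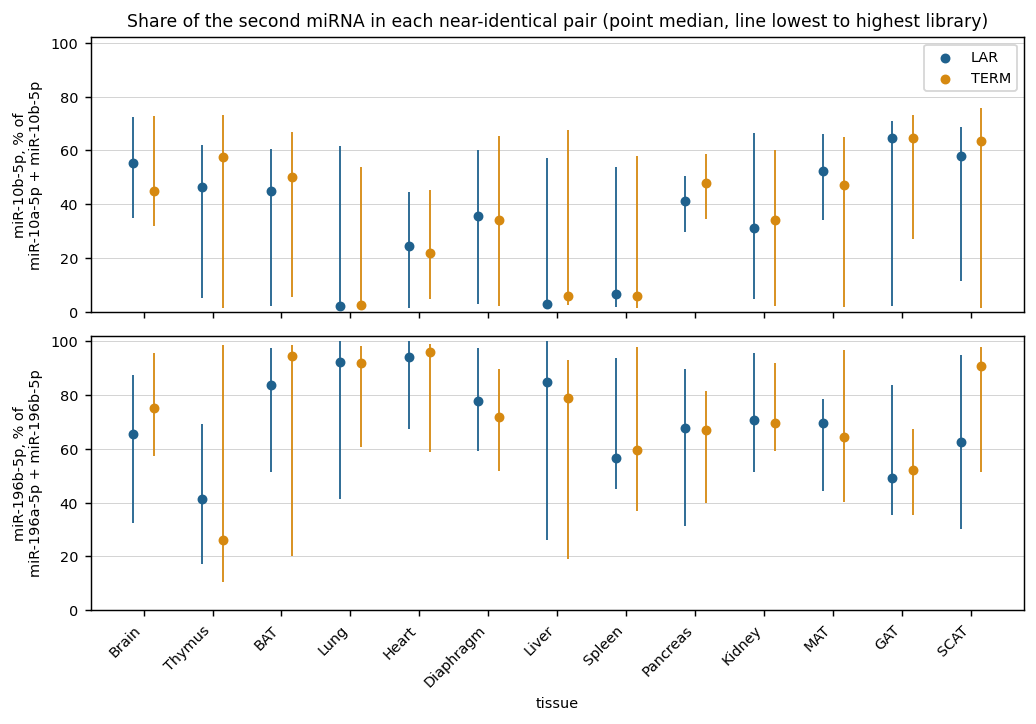
Share of miR-10b-5p in the summed counts of the miR-10 pair (top) and of miR-196b-5p in the miR-196 pair (bottom), in percent, for each tissue. Points are medians and lines run from the lowest to the highest library, LAR in blue and TERM in orange. The miR-10b-5p share is under 7% in lung, liver and spleen and near 64% in GAT.

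mmu-miR-615-3p, from within Hoxc5, had the lowest median count per library of the 5 members, although in SCAT, BAT, diaphragm, brain and lung of LAR its median CPM was above that of miR-196a-5p. Its LAR medians were 170.0 CPM in GAT, 151.0 CPM in kidney, 94.8 CPM in SCAT, 42.5 CPM in diaphragm and 39.5 CPM in BAT, and it was under 2 CPM in spleen, lung, heart and liver. In TERM it reached 211.1 CPM in GAT and 151.0 CPM in kidney. Its tissue pattern lay closest to that of miR-10b-5p among the members, with a Pearson correlation across the 13 tissue medians of ground controls, on a log2 scale, of 0.91 in LAR and 0.92 in TERM.

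Placed along the body axis from brain to the caudal fat depots, levels tended to be higher towards the tail. The rank correlation of the median ground control level with this order, a description over 13 tissues that share animals and library preparation, was 0.64 in LAR and 0.68 in TERM for miR-196a-5p, and 0.71 and 0.80 for miR-196b-5p. For miR-10a-5p it was 0.41 and 0.55, for miR-10b-5p 0.53 and 0.58 and for miR-615-3p 0.43 and 0.45. The values for the miR-196 pair were thus above those of the other 3 in both extractions. The sources do not give the sites of BAT and SCAT, and their places in the order assume the usual interscapular and inguinal sites. Without these depots the values were 0.76 and 0.79 for miR-196a-5p and 0.75 and 0.91 for miR-196b-5p.

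**Figure D2:**
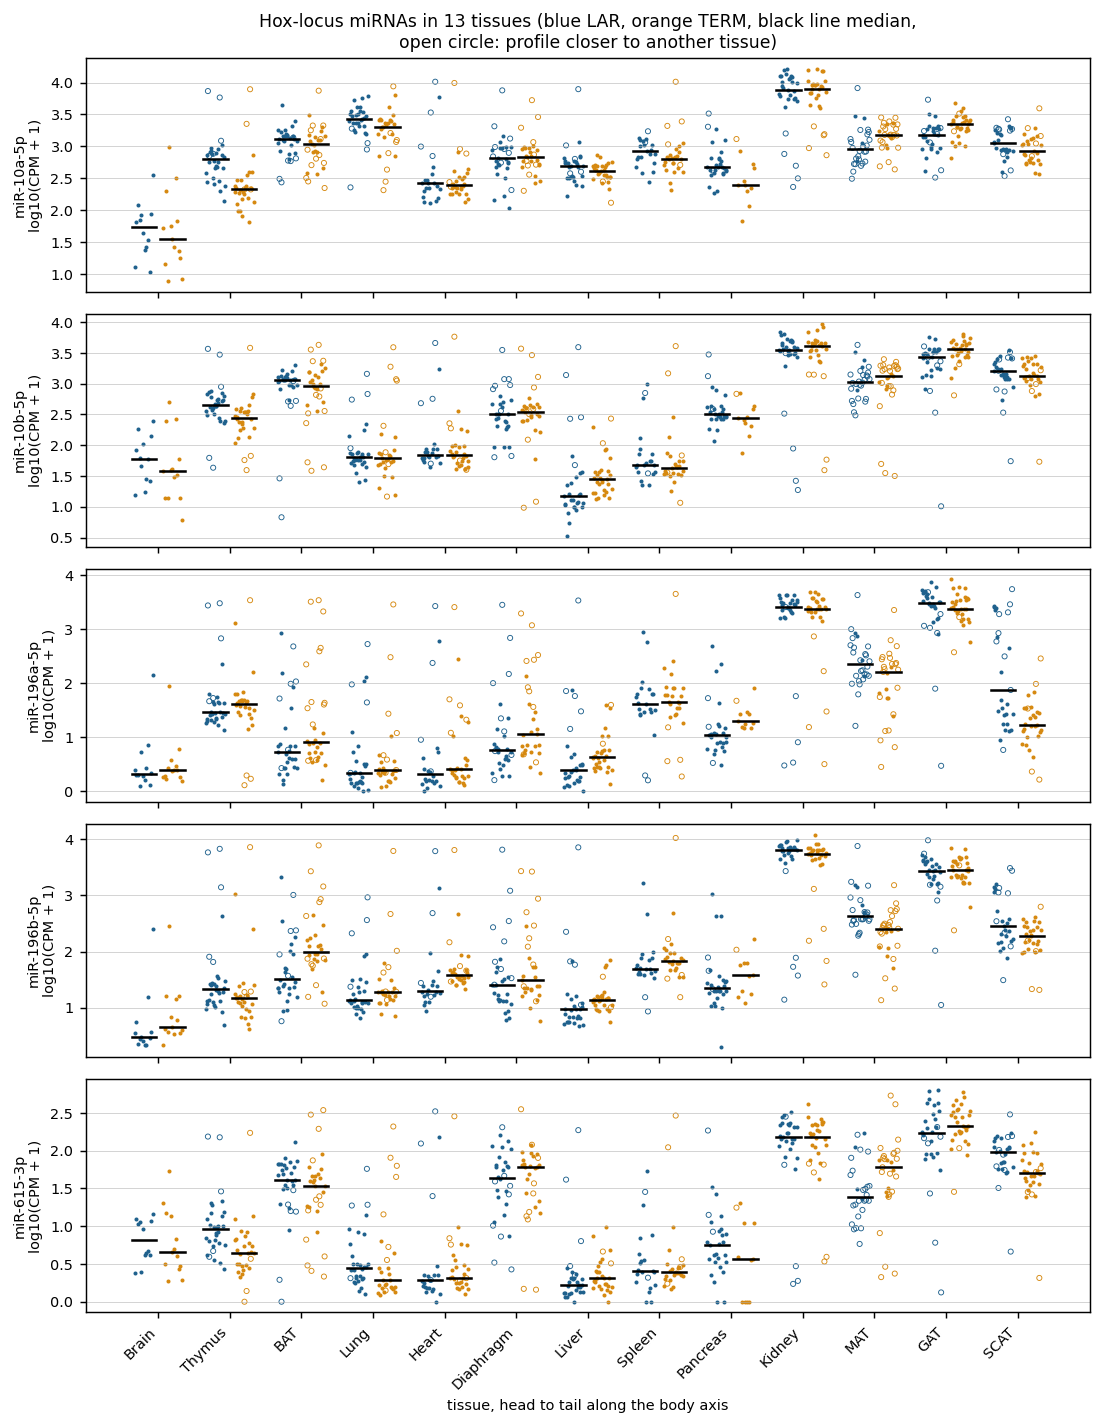
Level of each member in every library, as log10 of CPM plus 1, for the 13 tissues from head to tail. Blue points are LAR, orange points TERM, open circles mismatched libraries and black lines medians. Kidney and GAT stand highest for 4 of the 5 members, and brain is lowest for miR-10a-5p and miR-196b-5p in LAR.

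Most neighbours in the order of levels were not separated by the test. In one edgeR quasi-likelihood fit over LAR ground controls of the 13 tissues, 41.5% of all miRNA by tissue-pair tests were called at an adjusted p under 0.05, and 17 of the 60 neighbouring pairs of the members were called. The 41.5% covers all miRNAs at the tissue pairs that are neighbours for any member. The 60 were picked as adjacent in that member's own medians, which favours small differences, so the shares cannot be compared. For miR-10a-5p, kidney exceeded lung by a log2 difference of 1.11 (adjusted p = 0.0087) and lung exceeded GAT by 1.33 (adjusted p = 0.0012), while the 7 steps from GAT to liver were not called. For miR-10b-5p, the steps from kidney through GAT, SCAT and MAT to BAT were not called, and BAT exceeded thymus by 1.43 (adjusted p = 0.0091). For miR-196a-5p, kidney and GAT did not separate (0.17, adjusted p = 0.90), and GAT exceeded MAT by 2.31 (adjusted p = 0.038). For miR-196b-5p the step from kidney to GAT was not called (1.58, adjusted p = 0.082), nor was GAT against kidney for miR-615-3p (0.37, adjusted p = 0.65). With the animal as a block, 9 of the 60 pairs were called. In 4 of the 17 called pairs the fitted difference ran against the order of the medians, as in BAT against diaphragm for miR-196a-5p (medians 4.16 and 4.04 CPM, fitted difference -3.22).

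A rule named the most similar miRNAs across the 13 tissues with the members themselves left out, and by it the partner strand of the same hairpin came first for 4 members. The Pearson correlation in LAR over 1295 miRNAs compared was 0.96 for miR-10a-3p with miR-10a-5p, 0.98 for miR-10b-3p with miR-10b-5p, 0.87 for miR-196a-2-3p with miR-196a-5p and 0.96 for miR-615-5p with miR-615-3p. For miR-196b-5p the rule named miR-10b-3p (0.88) and miR-196a-2-3p (0.88). Between members the highest value was 0.93 for the miR-196 pair, above that of any miRNA named by the rule for either, and miR-10a-5p with miR-10b-5p reached 0.55. Among names outside the Hox clusters, miR-450a-2-3p (0.90 in LAR, 0.78 in TERM) and miR-322-5p (0.85 and 0.78) followed miR-10a-5p. miR-3963 was listed for miR-10b-5p (0.86 and 0.61) and for miR-615-3p (0.83 and 0.70), and miR-702-5p followed miR-196a-5p in LAR (0.83) but not in TERM (-0.31).

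The partner strands also separate the miR-196a copies, since each copy has its own 3p sequence. Over all 686 libraries, 7498 counts fell on miR-196a-2-3p of the Hoxc cluster and 1305 on miR-196a-1-3p of the Hoxb cluster, so the Hoxc copy held 85.2%. It held 98.2% in GAT (1191 against 22 counts), 97.2% in SCAT (210 against 6) and 82.0% in kidney (4765 against 1046). Kidney thus carried more of the Hoxb strand than the white fat depots. These counts are small beside those of miR-196a-5p (1526294.5 counts).

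The fat depots differed in the members' levels among ground controls. In LAR, 14 of 30 depot-pair tests of the members were called, beside 28.1% of all such tests, and in TERM 16 of 30, beside 21.4%. SCAT had a median of 30.1 CPM miR-196a-5p in LAR ground controls against 2549 CPM in GAT, and 209.5 against 2060 CPM miR-196b-5p. For SCAT against GAT in LAR, beside 7.01% of all miRNAs called, the log2 difference was -2.83 ± 0.82 (SE, adjusted p = 0.021) for miR-196a-5p and -2.20 ± 0.54 (adjusted p = 0.0048) for miR-196b-5p, while miR-10a-5p, miR-10b-5p and miR-615-3p were not called. In TERM, beside 13.3% of all miRNAs, all 5 were lower in SCAT than in GAT, from -0.74 ± 0.26 for miR-10a-5p (adjusted p = 0.045) through -1.06 for miR-10b-5p, -1.79 for miR-615-3p and -3.55 for miR-196b-5p to -5.96 ± 0.83 for miR-196a-5p (adjusted p = 4.93e-08). The miR-10a-5p difference was 0.31 with 7-class scaling and was not called without a filter (-0.65, adjusted p = 0.13).

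BAT was low in the miR-196 pair. GAT exceeded BAT in LAR by a log2 difference of 6.46 ± 0.94 for miR-196a-5p (adjusted p = 1.24e-07), with medians of 2549 and 4.16 CPM, and by 4.11 ± 0.58 for miR-196b-5p. In TERM these differences were 2.86 and 2.03. Of all miRNAs, 27.2% separated GAT from BAT in LAR and 32.5% in TERM. With the animal as a block the TERM values were 6.00 and 3.40. miR-10b-5p separated GAT from BAT by 0.78 in LAR (adjusted p = 0.041), a call lost with the animal as a block (0.69, adjusted p = 0.11), and by 1.18 in TERM (adjusted p = 0.00054). miR-615-3p was higher in GAT than in BAT in both, by 1.81 (adjusted p = 0.000389) and 1.79 (adjusted p = 0.000233), and miR-10a-5p did not separate them in LAR (-0.18, adjusted p = 0.65). In LAR, SCAT exceeded BAT by 3.63 for miR-196a-5p and 1.91 for miR-196b-5p, beside 23.8% of miRNAs called. In TERM, beside 9.49%, SCAT against BAT was called as lower for miR-196a-5p (-3.10 ± 0.73) and miR-196b-5p (-1.53 ± 0.49, adjusted p = 0.034) although their medians were higher (18.8 against 7.34 CPM and 176.8 against 99.6 CPM). With the animal as a block the differences were -0.42 and -0.24 (adjusted p = 0.86 and 0.87), and without mismatched libraries they were 1.78 and 0.35.

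By medians, MAT lay between GAT and BAT for the miR-196 pair, although 46 of its 57 libraries were mismatched. GAT exceeded MAT in LAR by 2.19 for miR-196a-5p, 2.22 for miR-615-3p and 0.87 for miR-10b-5p, beside 43.3% of miRNAs called, while miR-196b-5p did not pass (1.03, adjusted p = 0.091) but did with the animal as a block (1.89, adjusted p = 0.0032). In TERM it exceeded MAT by 3.35 for miR-196a-5p, 3.11 for miR-196b-5p, 1.52 for miR-10b-5p and 1.53 for miR-615-3p, beside 33.6%. MAT exceeded BAT in LAR by 4.27 for miR-196a-5p and 3.07 for miR-196b-5p, beside 28.3%. In TERM, beside 19.2%, neither was called for MAT against BAT, and the fitted differences of -0.49 (adjusted p = 0.70) and -1.08 (adjusted p = 0.13) ran against the medians, which were 176.9 and 7.34 CPM for miR-196a-5p and 261.6 and 99.6 CPM for miR-196b-5p. SCAT exceeded MAT in LAR for miR-615-3p (1.27, beside 39.1%), and was below MAT in TERM for miR-196a-5p (-2.61, beside 20.5%).

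In LAR, miR-196a-5p and miR-196b-5p were higher in SCAT of FL than of HGC. Over the 13 tissues, 3 of the 65 member tests of FL vs. HGC were called, beside 1.54% of all tests, and in SCAT 2 of 5, beside 5.35%. miR-196a-5p in SCAT had a lowest, median and highest value of 29.1, 1893 and 2670 CPM in 9 FL libraries, and of 4.83, 25.4 and 312.2 CPM in 10 HGC libraries. The groups overlapped through a single library, since 8 of the 9 FL values lay above the highest HGC value and FL replicate 16 lay inside the HGC range. The log2 difference was 3.71 ± 1.08 (SE, edgeR quasi-likelihood test, adjusted p = 0.040).

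miR-196b-5p ran from 142.3 through a median of 1163 to 1604 CPM in FL and from 30.0 through 195.6 to 345.2 CPM in HGC. Again 8 of 9 FL libraries exceeded every HGC library, with FL replicate 16 as the exception. Its log2 difference was 2.00 ± 0.59 (adjusted p = 0.040). The Hoxc partner strand miR-196a-2-3p, from counts of its own, was higher as well (3.92 ± 0.98, adjusted p = 0.034), with 165 counts in 9 of 9 FL libraries and 8 counts in 3 of 10 HGC libraries.

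The other 3 members did not pass the test in SCAT of LAR. miR-10a-5p had medians of 1613 CPM in FL and 886.2 CPM in HGC (0.59 ± 0.30, adjusted p = 0.26), miR-10b-5p 1891 and 1348 CPM (0.35 ± 0.39, adjusted p = 0.73) and miR-615-3p 101.2 and 69.9 CPM (0.00 ± 0.40, adjusted p = 1.00). All 3 ranges overlapped. The share of miR-196b-5p in the miR-196 pair was 39.8% in FL (range 30.3 to 83.0%), near the 50.1% of FL GAT, and 87.6% in HGC, whose lowest library was at 40.9%.

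The VGC libraries of SCAT were split. Their miR-196a-5p values ran from 12.2 through a median of 56.9 to 5486 CPM, and 4 of the 10 lay above the highest HGC value, at 449.3, 2044, 2876 and 5486 CPM. The 3 highest of these had a miRNA profile closest to GAT. Of the 9 FL libraries, 3 were mismatched as well. FL replicate 4 (1893 CPM, the FL median) was closest to GAT, replicate 5 (591.4 CPM) to lung and replicate 3 (842.3 CPM) to pancreas. The highest HGC value, 312.2 CPM, came from replicate 16, whose profile was closest to diaphragm. FL vs. VGC in SCAT was not called (miR-196a-5p 0.50 ± 0.99, miR-196b-5p 0.28 ± 0.58, both adjusted p = 0.89), where 0% of 935 miRNAs were called. Without mismatched libraries, FL vs. VGC was 4.39 ± 0.93 for mmu-miR-196a-5p and 2.11 ± 0.44 for mmu-miR-196b-5p (both adjusted p = 0.018). FL vs. HGC was then 5.17 ± 0.85 (adjusted p = 0.000727) and 2.06 ± 0.40 (adjusted p = 0.0044). Over all tissues tested, 0.303% of FL vs. VGC and 0.322% of FL vs. HGC tests were called in that setting. It removes the 3 VGC libraries closest to GAT, the depot high in miR-196a-5p, which held the highest VGC values. The filter is thus tied to the level compared, and the FL vs. VGC calls under it are not independent of that choice. Without mismatched pools, FL vs. HGC was 5.13 for mmu-miR-196a-5p (adjusted p = 0.038) and 2.02 for mmu-miR-196b-5p, which was then not called (adjusted p = 0.11).

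With library plate as a term in the model, FL vs. HGC in SCAT was 4.59 for miR-196a-5p (adjusted p = 0.056) and 2.08 for miR-196b-5p (adjusted p = 0.095), so neither was called. With the mouse number as a replicate block, miR-196a-5p stayed called (4.86, adjusted p = 0.041) and miR-196b-5p did not (1.93, adjusted p = 0.10). Between arms this block joins different animals that share a number, so it does not pair animals. Leaving out each FL or HGC library in turn gave 3.43 to 5.18 for miR-196a-5p, called in 5 of 19 cases, and 1.79 to 2.19 for miR-196b-5p, called in 4 of 19. The direction held in all 19. The call of miR-196a-5p was lost without FL replicate 1, 2, 4, 5, 13 or 14 or HGC replicate 1, 2, 3, 4, 5, 11, 12 or 14 (adjusted p up to 0.079), and that of miR-196b-5p without FL replicate 1, 2, 3, 4, 5, 13 or 14 or HGC replicate 1, 2, 3, 4, 5, 11, 13 or 14 (adjusted p up to 0.094).

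By age, the 5 FL libraries of 3-month mice held 591.4, 2221, 2425, 2593 and 2670 CPM miR-196a-5p in LAR SCAT. The 4 libraries of 8-month mice held 29.1, 715.4, 842.3 and 1893 CPM. The 2 ages overlapped, and the difference between ages in the flight effect was not called (log2 -2.79 ± 2.00, adjusted p = 0.83). No member was called for it in GAT or SCAT (0 of 10 tests, 0 at an unadjusted p under 0.05, 0 by DESeq2), beside 0% of all miRNAs.

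**Figure D3:**
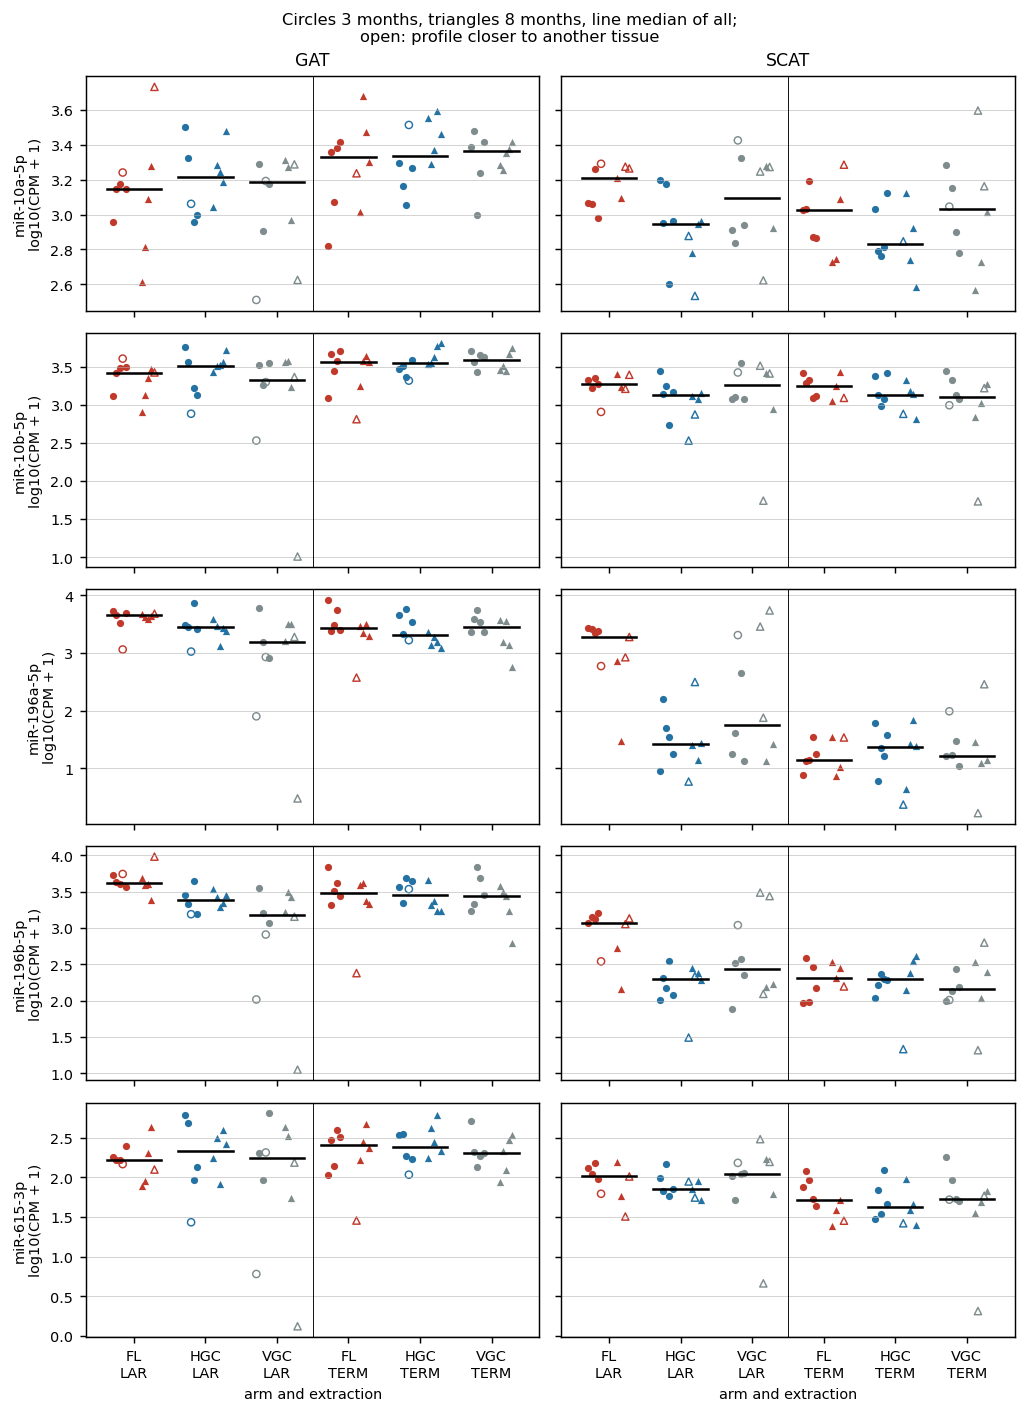
Each GAT (left) and SCAT (right) library, as log10 of CPM plus 1, by arm and extraction. FL is red, HGC blue and VGC grey, circles are 3-month and triangles 8-month mice, open symbols mismatched libraries and black lines medians. In SCAT of LAR, 8 of 9 FL libraries lie above every HGC library for both miR-196 members, and in TERM the arms overlap.

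In TERM SCAT the arms overlapped for the miR-196 pair. miR-196a-5p ran from 6.35 through 13.1 to 34.3 CPM in FL, from 1.32 through 22.4 to 68.5 CPM in HGC and from 0.650 through 15.4 to 285.6 CPM in VGC. The FL vs. HGC difference was -0.56 ± 0.68 for miR-196a-5p and -0.05 ± 0.45 for miR-196b-5p (both adjusted p = 1.00). Over the 13 TERM tissues, 0 of 65 member tests of FL vs. HGC were called by edgeR and 0 by DESeq2, with 12 and 4 at an unadjusted p under 0.05, beside 0.307% of all tests.

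In GAT of LAR, both miR-196 members had a higher median in FL than in HGC and did not pass the test. miR-196a-5p ran from 1150 through 4551 to 5306 CPM in FL and from 1057 through 2779 to 7391 CPM in HGC (log2 0.71 ± 0.58, adjusted p = 0.66). miR-196b-5p ran from 2439 through 4235 to 9634 CPM in FL and from 1550 through 2457 to 4485 CPM in HGC (1.12 ± 0.49, adjusted p = 0.31). Both groups overlapped, and 4 of 10 FL libraries lay above the highest HGC library for miR-196b-5p, where 0% of 976 miRNAs were called. Among these FL libraries, replicate 4 (9634 CPM, closest to kidney) and replicate 2 (5558 CPM, closest to lung) were mismatched. miR-10a-5p, miR-10b-5p and miR-615-3p differed by 0.15, -0.12 and -0.18, and none passed.

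Against VGC, the miR-196b-5p ranges of GAT overlapped through a single FL library. VGC ran from 10.2 through 1526 to 3593 CPM, and 9 of 10 FL libraries lay above the highest of them, where 3.18% of miRNAs were called. Of the 10 VGC libraries 4 were mismatched, at 10.2, 102.7, 812.4 and 1431 CPM, all below the VGC median. The log2 difference of 1.62 ± 0.49 did not pass (adjusted p = 0.063), nor did that of miR-196a-5p (1.20, adjusted p = 0.34). Without mismatched libraries, neither miR-196 member was called in GAT of LAR for FL vs. HGC or FL vs. VGC.

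Scaling to the summed counts of 7 RNA classes in place of TMM moved the median log2 difference of all miRNAs in GAT of LAR to 1.16. On that scale miR-196b-5p differed by 2.51, miR-196a-5p by 1.90 and miR-10a-5p by 1.69, and these 3 were called, beside 14.8% of all miRNAs on that scale. Relative to the shift of all miRNAs, miR-615-3p at 1.02 and miR-10b-5p at 1.30 stayed near it.

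The flight difference of GAT against that of SCAT was tested in one fit over both depots. In LAR the difference of the 2 ratios was -3.14 ± 1.21 for miR-196a-5p (adjusted p = 0.15) and -0.95 ± 0.78 for miR-196b-5p (adjusted p = 0.67), beside 2% of all miRNAs called. None of the 5 was called by edgeR or DESeq2, with 1 at an unadjusted p under 0.05 by each. Without mismatched libraries the miR-196a-5p value was -4.50 ± 0.88 (adjusted p = 0.0024), and scaled to the miRNA total it was -4.13 ± 1.17 (adjusted p = 0.048). In TERM it was 0.80 ± 0.80 (adjusted p = 0.99), with 0 of 5 called, 0 at an unadjusted p under 0.05 and 0 by DESeq2, beside 0% of all miRNAs.

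Since GAT holds far more of the miR-196 pair than SCAT, each LAR library was placed between the depots with 27 other miRNAs that separated GAT and SCAT in TERM ground controls, 5 higher in GAT and 22 in SCAT. The scale was set to 0 at SCAT and 1 at GAT, and this measure was chosen after the values were seen. SCAT of FL lay at 0.16 to 0.73 with a median of 0.36, SCAT of HGC at -0.08 to 0.33 with a median of 0.05, and SCAT of VGC at -0.05 to 1.15 with a median of 0.26. The FL libraries thus lay nearer to GAT than most HGC libraries, 6 of 9 above the highest of them. GAT of FL lay further along the same scale as well, with a median of 1.14 (0.82 to 1.31) against 0.91 in HGC (0.32 to 1.17) and 0.87 in VGC, and 4 of 10 FL libraries lay above the highest HGC library. In TERM the FL median of SCAT was 0.02. Those of TERM HGC (0.02) and VGC (-0.03) lie near 0 by construction, since these libraries set the scale.

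Of the marker lists of other cell types, striated muscle alone had no overlap between FL and HGC in LAR SCAT. The summed level of 4 striated muscle markers was 2994 to 64040 CPM in FL (median 25780) and 96270 to 624900 CPM in HGC (median 141000), with no overlap, and 5031 to 269200 CPM in VGC (median 55590), across both. The 4 lymphoid markers had medians of 21520 CPM in FL, 4798 CPM in HGC and 14650 CPM in VGC, and the 6 epithelial markers 19210, 19080 and 14320 CPM. The 3 erythroid markers had medians of 27710, 14660 and 20790 CPM and the 3 brown fat markers 50620, 88240 and 63260 CPM in the same order, and the ranges of these 4 lists overlapped between the arms. None of these defining markers had a median of 0 in either arm, while both gonad markers did in all 3 arms. The part of depot position and cell content in the miR-196 difference was not tested.

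**Figure D4:**
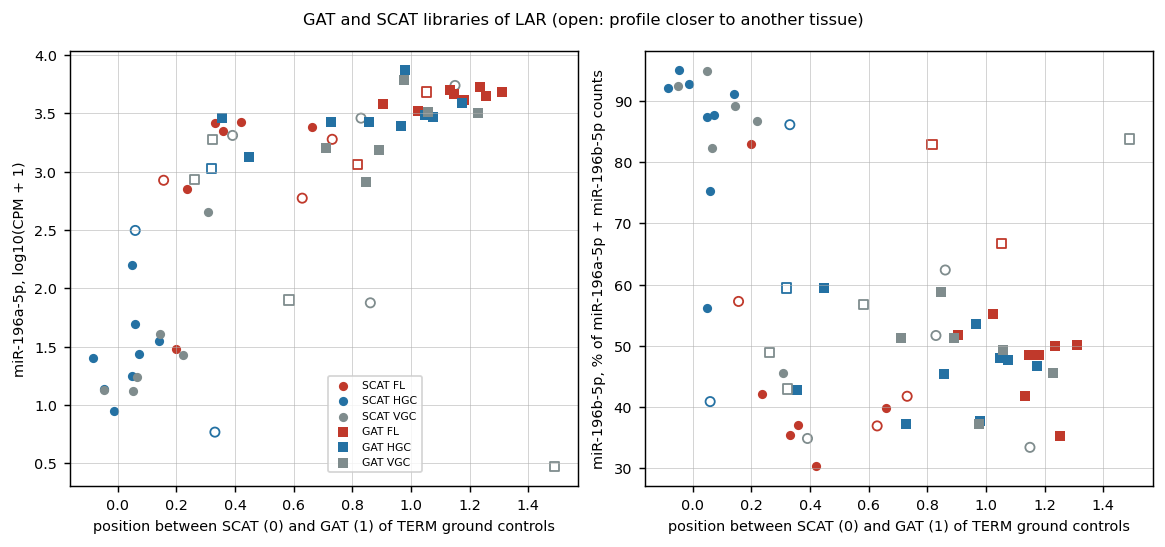
miR-196a-5p as log10 of CPM plus 1 (left) and the percent of miR-196b-5p in the miR-196 pair (right) against the position of each LAR library between SCAT (0) and GAT (1) of TERM ground controls. Circles are SCAT, squares GAT, red FL, blue HGC, grey VGC, open symbols mismatched libraries. The median position of FL in SCAT, 0.36, lies between that of HGC (0.05) and those of GAT, while single libraries overlap on both sides.

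BAT of LAR gave the remaining FL vs. HGC call, beside 6.92% of miRNAs in that tissue. miR-196a-5p there ran from 0.397 through 5.08 to 835.0 CPM in FL and from 1.13 through 3.53 to 14.0 CPM in HGC, with FL replicates 11 and 16 at 835.0 and 156.2 CPM. The log2 difference was 4.36 ± 1.20 (adjusted p = 0.033), and without FL replicate 11 it was 2.29 (adjusted p = 0.13). The call was also lost without FL replicate 12 (4.52, adjusted p = 0.053) or HGC replicate 12 (4.35, adjusted p = 0.063), with a plate term (1.35, adjusted p = 0.81) and with the replicate block (0.97, adjusted p = 0.80). Without mismatched pools the direction turned (-0.42, adjusted p = 1.00).

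For FL vs. VGC in LAR, 2 of 65 member tests were called, beside 0.736% of all tests, both in liver (miR-196a-5p -5.73 and miR-196b-5p -4.79), where 4.98% of miRNAs were called. VGC replicate 14 of liver held 3386 and 7198 CPM with a profile closest to kidney, and without it the differences were 0.82 and 1.49 (adjusted p = 0.78 and 0.16). For HGC vs. VGC in LAR, 2 were called, beside 0.176% of all tests, both in lung, where 0.469% were called: miR-196a-5p at -5.77 and miR-196b-5p at -3.31 (both adjusted p = 0.042). Neither was called without mismatched libraries (-4.51 and -1.25). On leaving out each of 30 libraries in turn each call held in 13 cases, and without VGC replicate 3 the differences were -4.54 and -2.22 (adjusted p = 0.27 and 0.31).

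For FL vs. VGC in TERM, 4 member tests were called, beside 0.712%. In heart, where 2.34% of miRNAs were called, miR-10b-5p, miR-196b-5p and miR-615-3p differed by 2.68, 3.51 and 3.79, and FL replicate 14 of heart held 5814, 6455 and 283.9 CPM of them with a profile closest to kidney. Without it the differences were 0.59, 0.34 and 0.80, none called. In liver, where 7.24% of miRNAs were called, mmu-miR-196a-5p fell by 2.14 on the log2 scale (adjusted p = 0.032), from medians of 4.89 CPM in VGC to 2.68 CPM in FL, with overlapping ranges. That call was lost without VGC replicate 1, 11 or 14 or FL replicate 1 (adjusted p up to 0.11) with the value still at -2.05 to -1.74, so it held in 25 of 29 single leave-outs that ran from -2.31 to -1.74. It was also lost with 7-class scaling (adjusted p = 0.072), with a plate term (-1.81, adjusted p = 0.43), with the replicate block (-1.53, adjusted p = 0.77), and without mismatched pools or libraries (-1.93, adjusted p = 0.092 in each). In GAT, where 0.22% of miRNAs were called, the FL vs. VGC differences of the members lay between -0.36 and 0.07. HGC vs. VGC in TERM gave 0 of 65 called by edgeR, beside 0.251%, 19 at an unadjusted p under 0.05 and 1 called by DESeq2.

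**Figure D5:**
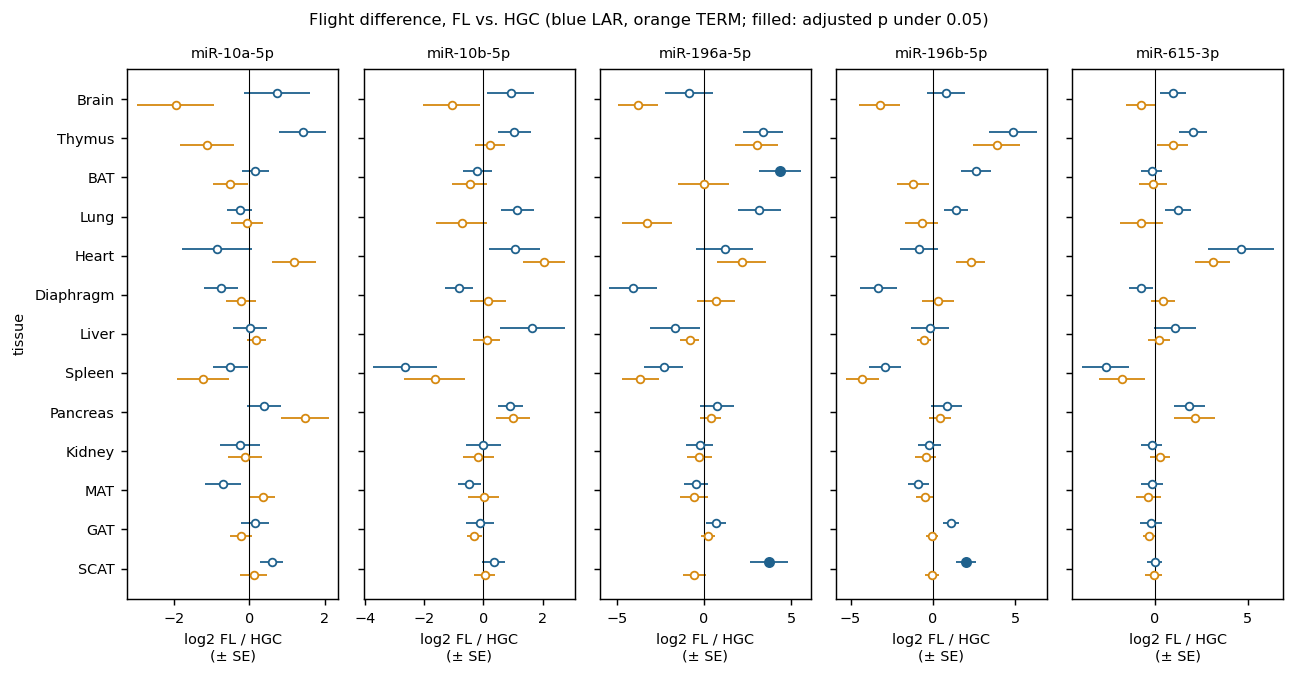
Log2 difference of FL against HGC with its SE for each member and tissue, LAR in blue and TERM in orange. Filled points passed an adjusted p under 0.05 in the edgeR quasi-likelihood test. The filled points are miR-196a-5p in SCAT (3.71) and BAT (4.36) and miR-196b-5p in SCAT (2.00), all in LAR.

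An effect size rule with the thresholds of the study's methods asks for medians that differ by more than 1 on the log2 scale and a Cohen's d beyond 0.5 in either direction. It was applied here to CPM plus a pseudocount of 1, not to the study's own normalised values. On this scale 3 of 65 member tests of FL vs. HGC passed in LAR, beside 2.26% of all tests. They were miR-196a-5p in SCAT (6.17, d = 2.60) and miR-196b-5p in SCAT (2.57, d = 2.14), where 8.13% of miRNAs passed, and miR-615-3p in brain (1.38, d = 0.81). None passed in LAR GAT, where 2.87% of miRNAs did, but scaled to 7 RNA classes all 5 members passed there, with 140 of all 976 miRNAs. In TERM, 3 passed beside 2.86%: miR-10a-5p in brain (-1.02), miR-615-3p in BAT (-1.13) and miR-615-3p in pancreas (3.06).

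Age gave no member call. Between 8 and 3 months, 0 of 60 member tests were called in LAR, beside 0.0785%, with 14 at an unadjusted p under 0.05 and 2 called by DESeq2, and 0 of 60 in TERM, beside 1.33%, with 9 and 1. Between LAR and TERM ground controls 3 of 65 were called, beside 4.7%: miR-196b-5p in MAT (1.51, beside 31.4% of miRNAs in that tissue), miR-10a-5p in pancreas (0.96, beside 26.4%) and miR-196a-5p in SCAT (3.25, beside 0.734%), all higher in LAR. On leaving out each of the 40 SCAT libraries in turn the value ran from 2.60 to 3.57 and was called in 22 cases. Without mismatched libraries the SCAT value was 1.18 (adjusted p = 0.29) and the MAT value 2.89 (adjusted p = 0.079). The MAT call was lost without HGC replicate 13 of LAR (0.70, adjusted p = 0.14), and the pancreas call without HGC replicate 14 of LAR (0.69) or HGC replicate 1, 2, 3, 4 or 5 of TERM, where the value stayed at 0.85 to 0.94.

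The miR-99, miR-100 and miR-125 genes, related to miR-10 by sequence but encoded outside the Hox clusters, were taken as a list of 5 mature miRNAs. In FL vs. HGC 0 of their 65 tests were called in LAR and 0 of 65 in TERM by edgeR, with 3 and 7 at an unadjusted p under 0.05 and 0 and 0 called by DESeq2, beside 1.54% and 0.307% of all tests. Between fat depots 15 of 30 were called in LAR and 15 of 30 in TERM, beside the 28.1% and 21.4% of all such tests.

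Of the long noncoding RNAs of the Hox clusters, Hotair of the Hoxc cluster had tissue medians of 21.5 to 104.5 counts in LAR. Scaled to the summed counts of the 7 RNA classes of each library, to the same common total as CPM, its median was highest in heart (2.63), BAT (1.97) and kidney (1.52) and lowest in GAT (0.296) and SCAT (0.288). These are fragments in a small RNA library, counted without regard to transcript length.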

How the data were processed

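Small RNA libraries (MGIEasy kit, BGISEQ, no molecular identifiers) were counted by the authors with miRMaster against GRCm39, and the values are estimated counts as deposited by the authors, not normalized, 0.79% of them fractional. They were rounded for the tests. Depth per library is given in the text, and intervals cover the spread between libraries. Tests used edgeR 4.0.16 (quasi-likelihood, TMM, Benjamini-Hochberg over all miRNAs of a fit) in R 4.3.3, keeping miRNAs with at least 5 counts in 10% of a compared group. DESeq2 1.42.0 was an alternative, as were other scalings, no filter, plate, a replicate block, and fits without mismatched pools (11 of 44) or libraries. In tests between arms the replicate block joins different animals that share a number. Same-numbered libraries of different arms had a median correlation of deviations of 0.019. Different fat depots of the same animal reached only 0.043, so this measure cannot tell paired from unpaired libraries. Scripts were tested on simulated counts: for SCAT of LAR, 24% of 2-fold and 66% of 4-fold changes were recovered among 870 miRNAs, with 0% false calls. For SCAT vs. GAT in LAR ground controls these were 40% and 76% among 997, with 10.1% of calls false, and for FL vs. HGC in LAR brain 0% and 41% among 971, with 4.65%. The 5 members and all lists were chosen with earlier results of these data known. Genes named were the members, their partner strands and the most similar miRNAs. Pools and plates came from the study's sample sheet. Separate animals are given by the labels.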

Additional observations from a re-analysis of the deposited data

Results flagged for a closer look

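In 14 of 60 checks of a member in 1 arm of GAT or SCAT, a single library lay far from the rest of its group, where chance gives about 1 in 20. In 12 of the 14 the library was a mismatched one.

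In LAR GAT, FL replicate 2 held 1150 CPM miR-196a-5p against 3328 to 5306 CPM in the other libraries, and VGC replicate 4 held 9.18 CPM miR-10b-5p against 338.4 to 3728 CPM. In TERM GAT, FL replicate 11 was lowest for miR-196a-5p (372.8 CPM against 2011 to 8317), miR-196b-5p (238.0 CPM against 2102 to 6891) and miR-615-3p (27.5 CPM against 105.2 to 472.0). VGC replicate 3 of TERM GAT, whose profile was closest to GAT, held 999.1 CPM miR-10a-5p against 1723 to 3010 CPM.

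In LAR SCAT, FL replicate 16, whose profile was closest to SCAT, held 29.1 CPM miR-196a-5p against 591.4 to 2670 CPM. FL replicate 5 held 805.8 CPM miR-10b-5p against 1622 to 2526 CPM, and HGC replicate 11 held 30.0 CPM miR-196b-5p against 101.6 to 345.2 CPM. VGC replicate 12 of LAR was lowest for miR-10b-5p (54.1 CPM against 887.9 to 3529) and miR-615-3p (3.61 CPM against 50.6 to 300.8). In TERM SCAT, HGC replicate 11 held 20.5 CPM miR-196b-5p against 108.8 to 416.6 CPM, and VGC replicate 12 held 53.0 CPM miR-10b-5p against 686.4 to 2778 CPM and 1.06 CPM miR-615-3p against 34.9 to 176.5 CPM. What sets these libraries apart was not tested.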

How the results depend on the processing

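Counts of member calls moved by more than 1.5 times under these alternatives. For FL vs. HGC in LAR, 3 calls became 7 with 7-class scaling, 0 with a plate term, 1 with the replicate block and 1 without mismatched pools, while the share of all tests called went from 1.54% to 2.46%, 0.224%, 0.384% and 0.0873%. For FL vs. VGC in LAR, 2 (0.736% of all tests) became 4 with DESeq2 (1.28%), 6 with 7-class scaling (0.896%), 1 without a filter (0.402%) and 0 with the miRNA total (0.688%), a plate term (0.008%), the block (0%) or without mismatched pools (0.262%). For HGC vs. VGC in LAR, 2 (0.176%) became 8 with DESeq2 (0.529%) and 0 with 7-class scaling, plate, block, or without mismatched pools or libraries (0% to 0.216%). For FL vs. VGC in TERM, 4 (0.712%) became 1 with DESeq2 (0.479%) and 0 with plate, block, or without mismatched pools or libraries (0.00809% to 0.0287%). For HGC vs. VGC in TERM, 0 (0.251%) became 1 with DESeq2, 7-class scaling or no filter (0.503%, 0.307% and 0.2%). For age, 0 became 2 (DESeq2, 0.754% of all tests) or 1 (miRNA total, no filter, 0.157% and 0.0807%) in LAR, and 2 (7-class, 3.64%) or 1 (DESeq2, no filter, without pools, 4.19%, 0.99% and 1.56%) in TERM. For LAR vs. TERM, 3 (4.7%) became 11 with DESeq2 (8.12%) and 13 with 7-class scaling (13.7%). Depots in LAR went from 14 (28.1%) to 22 without mismatched pools (32.8%), and neighbouring tissues from 17 (41.5%) to 9 with the block (38.9%) and 26 without pools (47.8%). Over LAR and TERM together, 7-class scaling changed 21 of the 60 depot tests of the members, with 12 calls lost and 9 gained. Leaving out mismatched pools changed 13 (1 lost, 12 gained) and a plate term 5 (3 lost, 2 gained). GAT against SCAT in LAR went from 0 (2%) to 1 with the miRNA total (2%) or without mismatched libraries (1.75%). By the effect size rule in LAR, 3 (282 of all 12498 tests) became 8 with 7-class scaling (241 of 12498) or 5 without pools (316 of 11460). In TERM, 3 (353 of 12358) became 1 with 7-class scaling (145 of 12358) or 0 with a pseudocount of 10 (130 of 12358). These counts are not read as being about the members, and the cause of the shifts was not tested.

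Leaving out 1 library at a time gave 1 to 4 calls for FL vs. HGC, 0 to 3 for FL vs. VGC and 0 to 4 for HGC vs. VGC in LAR, 1 to 5 for FL vs. VGC in TERM, 2 to 4 for LAR vs. TERM and 0 for FL vs. HGC and HGC vs. VGC in TERM and for age by flight. The shares of all miRNAs called in these fits are not given here, so the ranges are not read as being about the members.

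The direction turned as follows (log2). miR-196a-5p in LAR BAT became -0.42 without pools. In LAR GAT, FL vs. HGC, miR-10a-5p became -0.10 (miRNA total), -0.17 (plate), -0.034 (block), -0.32 (without pools) and -0.37 (without libraries), with -0.28 to 0.27 on leaving out single libraries, and miR-10b-5p ran from -0.27 to 0.0084 on leaving out. With 7-class scaling, which moved the median of all miRNAs there to 1.16, miR-10b-5p stood at 1.30 and miR-615-3p at 1.02, near that shift. In LAR SCAT, miR-615-3p became -0.11 (DESeq2), -0.056 (7-class) and -0.13 (block), with -0.12 to 0.072 on leaving out. In LAR liver, FL vs. VGC, miR-196a-5p became 0.97 (plate), 0.095 (block), 0.053 (without pools) and 0.15 (without libraries), and miR-196b-5p 0.62 (DESeq2), 1.20 (plate), 0.14 (block), 0.022 (without pools) and 0.047 (without libraries), with leave-one-out ranges of -6.78 to 0.82 and -5.42 to 1.49. In LAR depots with 7-class scaling, miR-10b-5p became -0.86 (GAT against BAT) and -0.15 (GAT against MAT).

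In TERM GAT, miR-10a-5p became 0.12 and miR-196a-5p -0.21 with plate, and miR-196b-5p 0.10 (DESeq2), 0.045 (miRNA total), 0.012 (block), 0.094 (without pools) and 0.12 (without libraries). In TERM heart, miR-196b-5p became -0.016 without libraries. In TERM SCAT, mmu-miR-10a-5p became -0.029 (7-class), -0.23 (without pools) and -0.004026 (without libraries), mmu-miR-10b-5p -0.22 (7-class), -0.000125 (no filter), -0.048 (plate) and -0.051 (without pools), miR-196b-5p 0.090 (miRNA total), 0.76 (plate) and 0.052 (block), and miR-615-3p 0.14 (miRNA total) and 0.034 (plate). For SCAT against BAT in TERM, miR-196a-5p became 1.61 (without pools) and 1.78 (without libraries) and miR-196b-5p 0.37 and 0.35, and miR-10a-5p in SCAT against GAT became 0.31 with 7-class scaling.

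Mouse numbers name different animals in different arms. Of 653 same-numbered pairs across arms, 40.3% correlated above 0.1, but so did 39.3% of the pairs of fat depots from the same animal. The correlation thus cannot show whether libraries are paired. No paired analysis was possible for age because the groups compared share no number, and none was run for LAR vs. TERM. Tissues of 1 animal were paired by design, and the block changed 4 calls between fat depots, losing miR-10b-5p in GAT against BAT of LAR (0.69) and both miR-196 members in SCAT against BAT of TERM (-0.42 and -0.24) and gaining miR-196b-5p in GAT against MAT of LAR (1.89). Low counts limit miR-615-3p and miR-196a-5p, with 116 and 64 libraries under 5 counts.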
